A study of Mus musculus with 9 samples.

Results

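The genes described here serve protein folding, translocation and quality control in the endoplasmic reticulum (ER), together with sensors and factors of the unfolded protein response (UPR). They are 36 genes taken by symbol from a list of ER chaperones, disulfide isomerases, ER-associated degradation (ERAD) factors, UPR regulators, Sec61 subunits, translocon-associated protein (TRAP) subunits and signal peptidase subunits, by a rule that uses no measured value. All 36 were found among the 16921 genes of the ribosome profiling table. RiboSeq counts the ribosome-protected mRNA fragments (footprints) that map to each gene, and so measures mRNA abundance and ribosome loading together. The 9 libraries came from bone marrow-derived macrophages of TTP-deficient mice that were immortalized with the oncogenes hcmyc and hRasG12V. These cells carried a doxycycline-inducible vector for GFP alone, for GFP-TTP or for GFP-TTP-AA, with 3 libraries each. TTP (tristetraprolin, encoded by Zfp36) is an RNA-binding protein that directs AU-rich mRNAs to decay, and TTP-AA carries the substitutions S52A and S178A, which remove serines phosphorylated by the kinase MK2. All cells received doxycycline (1 μg/ml) for 6 h and LPS (1 μg/ml) for 1 h, so that there was no unstimulated group, no untransduced group and no group with an ER stressor. The 3 lines were transduced separately, so that a difference between conditions cannot be told apart from a difference between these lines.

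Secretory and membrane proteins enter the ER through the Sec61 channel, helped by the TRAP complex, and signal peptidase removes their signal sequences. In the lumen the Hsp70 chaperone BiP with its co-chaperones, the Hsp90 chaperone GRP94, the lectins calnexin and calreticulin and the protein disulfide isomerases fold them, while ERAD returns misfolded proteins to the cytosol. When folding falls behind, the sensors ATF6, IRE1 and PERK switch on the UPR, in which cleaved ATF6 and spliced XBP1 raise transcription of chaperone and ERAD genes. Macrophages stimulated with LPS make large amounts of secreted protein, and the comparisons here ask whether footprints on this machinery differed between cells with no TTP, with TTP and with the mutant that MK2 cannot phosphorylate.

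ATF6 and XBP1 are known to act through the ER stress response element (ERSE), and the letters of that element are shown here because they mark genes known as UPR targets. The search was made after the footprint differences were known. RefSeq promoter sequences (GRCm38.p6, 250 bases before to 50 bases after the start site) were given for 28 of the 36 genes. The 8 genes without an entry were Atf6, Derl1, Hyou1, Manf, Sec11c, Sec61a1, Spcs3 and Ssr2. The ERSE (CCAAT, 9 bases of any kind, CCACG, on either strand) was found in 8 of the 28 genes, namely Hspa5, Hsp90b1, Calr, Canx, Pdia6, Dnajc3, Creld2 and Syvn1. Of 27025 genes with a promoter entry 0.137% held these letters, and of the 7811 with an entry that were also tested 0.141% did. The sites of the 4 most heavily translated of these genes and of Creld2, which came nearest to the threshold against GFP cells, read as follows 5′ to 3′ with both ends of the element in capitals and 5 flanking bases at each end.
Hspa5, chr2:34772020-34772048, plus strand: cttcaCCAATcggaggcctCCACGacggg
Canx, chr11:50325795-50325823, minus strand: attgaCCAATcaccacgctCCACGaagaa
Calr, chr8:84847070-84847098, plus strand: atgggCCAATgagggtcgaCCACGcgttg
Hsp90b1, chr10:86705528-86705556, plus strand: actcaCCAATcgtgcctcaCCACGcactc
Hsp90b1, chr10:86705633-86705661, minus strand: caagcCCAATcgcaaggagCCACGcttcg
Creld2, chr15:88819515-88819543, minus strand: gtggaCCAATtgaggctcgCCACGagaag

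The element of Hspa5 began 65 bases before the RefSeq start site and lay inside the gene's span in GENCODE, and that of Canx began 145 bases before its start site. Hsp90b1 held a pair of elements on opposite strands, the nearer of them 107 bases before the start site. A shorter variant, ERSE-II (ATTGG, 1 base, CCACG), was found in Herpud1 and Dnajb11, in 0.0444% of all genes with an entry and in 0.0896% of those tested. It is printed for Herpud1, an ERAD factor and a classical UPR target, where it began 52 bases before the start site.
Herpud1, chr8:94386372-94386392, plus strand: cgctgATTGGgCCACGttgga

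In all, 5 motifs were searched. The core of the UPR element (TGACGTGG) was found in 0 of the 28 genes in 0.714% of all genes and in 1.02% of tested genes. The shorter TGACGT, which is part of it, was found in Hspa5, Dnajb11 and Canx, that is 10.7% of the 28 genes, against 8.37% of all genes and 14.4% of tested genes. CCACG alone, which is part of both ERSE forms, was found in 23 of the 28 genes in 35.5% of all genes and in 53.5% of tested genes. A match describes letters and is not a measured binding site.

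A level here is the footprint value of the authors' model for a gene, divided by the size factor of the library, and a difference is the log2 ratio of 2 levels, each the geometric mean over 3 libraries. The deposited values are fitted and hold no scatter between replicates, so that every library of a gene follows from its condition term and its replicate-number term. Groups that do not overlap therefore show the size of the condition term against the replicate term and are no independent evidence. The error is the standard error (SE) that the authors' model gave for that comparison, and a difference passed the test where the Wald p, adjusted by the Benjamini-Hochberg method over all genes tested, was under 0.05. The 3 comparisons share libraries. Nothing in the labels ties the replicates to separate cultures beyond the word biological. The p-values rest on the standard errors that the authors' model gave for these libraries, and reach no further than these libraries. Library sums ranged from 2570292 to 12804501. Zfp36, the gene that encodes TTP, had a level of 459 with GFP alone, 927 with GFP-TTP, and with the mutant 1535. Its footprints were thus lowest, though not absent, in the libraries labelled GFP alone. Between the TTP lines Zfp36 itself passed, with the mutant line higher by 0.73 ± 0.25 (log2, SE; adjusted p = 0.039). These lines therefore differed in Zfp36 footprints as well as in the mutated serines, although the paper reports comparable protein amounts for both forms. The part of this difference in the results for the ER genes was not tested. The macrophage markers were measured in every library (7 of 8 symbols in the table, Adgre1 under its older name Emr1), whereas the T cell markers summed to at most 0.519 and the fibroblast markers to at most 2.19 per library.

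The ER genes differed widely in footprint level. Per 100 codons and averaged over the 9 libraries, the level was highest for Calr (2756), the calcium-binding lectin calreticulin, followed by Hspa5 (1951), P4hb (1741), Pdia3 (1616), Canx (1499) and Hsp90b1 (1246). The next were Ssr1 of the TRAP complex (949), the folding factor Manf (799) and the isomerase Pdia6 (770). Subunits of 1 complex were spread over a narrower range. The 3 Sec61 subunits lay between 293 (Sec61b) and 381 (Sec61a1) per 100 codons, the 5 signal peptidase genes between 263 (Spcs2) and 493 (Spcs1), and the 4 TRAP subunits between 389 (Ssr2) and 949 (Ssr1). The ERAD genes ranged from 478 for the retrotranslocation factor Derl1 and 120 for the adaptor Sel1l down to 46.2 for the ubiquitin ligase Syvn1. The UPR regulators were near the bottom of the order, with Xbp1 at 115, Atf6 at 76.97 and Ern1, which encodes IRE1, last at 7.10. Spliced and unspliced Xbp1 cannot be told apart in counts per gene.

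**Figure D1:**
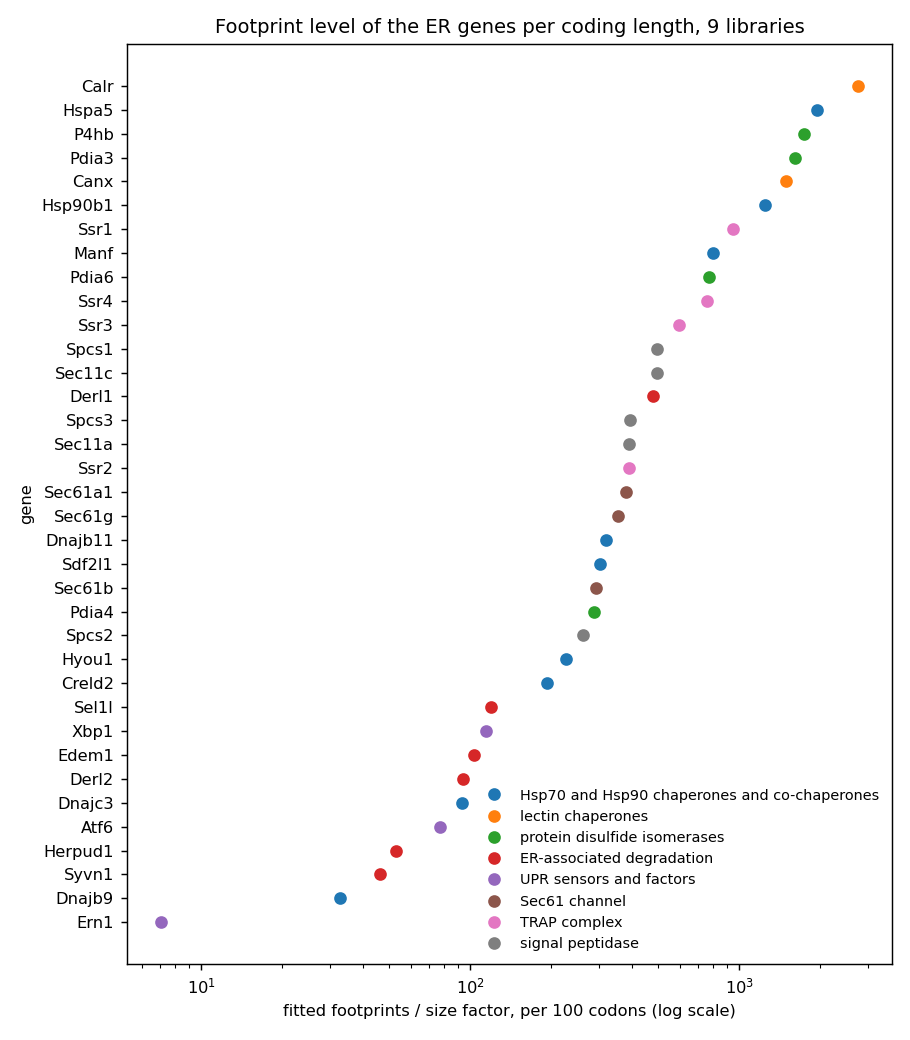
Footprint level of each of the 36 ER genes per 100 codons on a log scale, as the geometric mean over the 9 libraries, with 1 point per gene coloured by role. The 6 highest genes, from Calr to Hsp90b1, are chaperones and isomerases at 1246 or more, and the UPR regulators Xbp1, Atf6 and Ern1 lie at 115 or less.

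GFP-TTP-AA vs GFP-TTP was the one comparison in which genes of this group passed the test. Footprints were lower with GFP-TTP-AA for 5 of the 36 genes and higher for 0. These were Hspa5, Hyou1, Canx, Pdia4 and Atf6, each between 28.5% and 31.1% lower. These sizes, like all differences here, are on the scale of the authors' model, which shrinks differences toward 0. Among all 10202 genes tested in this comparison 10.3% passed in either direction and 4.63% passed with a lower level and 5.64% with a higher level in the mutant line. The median of the 36 genes was -0.04 on the log2 scale, against 0.005 for all genes tested, and 21 were lower and 15 higher. Without adjustment 9 of the 36 had a p under 0.05, 7 of them lower (22.2% of all genes tested in either direction, 10.9% lower). A difference of at least 0.5 in size was reached by 2 of the 36, Hspa5 and Hyou1, against 10.8% of all genes.

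Hspa5 (ENSMUSG00000026864, chr2:34771970-34777547) encodes BiP, the main ER Hsp70 chaperone, which also holds the UPR sensors inactive. Its level in libraries 1, 2 and 3 was 13436, 14364 and 12511 in GFP cells, 15088, 16082 and 13973 in GFP-TTP cells, and 10406, 11053 and 9635 in GFP-TTP-AA cells. The GFP-TTP-AA libraries were the lowest and did not overlap those of either other line. In fitted values such a separation follows from the sizes of the condition and replicate terms. Here and for the genes below it is no further evidence. The difference to GFP-TTP was -0.54 ± 0.14 (log2, SE; adjusted p = 0.0023), and the difference to GFP was -0.37 ± 0.14 and did not pass (adjusted p = 0.12).

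Hyou1 (ENSMUSG00000032115, chr9:44379490-44392369) encodes GRP170, a large Hsp70-like chaperone that acts as nucleotide exchange factor for BiP. Its level was 2621, 2381 and 1999 in GFP, 3053, 2766 and 2317 in GFP-TTP, and 2113, 1908 and 1603 in the mutant line. The GFP-TTP-AA libraries lay below all GFP-TTP libraries and overlapped those with GFP. The mutant line differed from the GFP-TTP line by -0.53 ± 0.14 (adjusted p = 0.0044).

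Canx (ENSMUSG00000020368, chr11:50293961-50325673) encodes calnexin, the membrane-bound lectin chaperone. Its level was 8028, 8850 and 8415 in GFP, 10264, 11282 and 10701 in GFP-TTP, and 7351, 8052 and 7662 in the mutant line. Here the GFP-TTP libraries stood above both other lines, which overlapped. GFP-TTP-AA differed from GFP-TTP by -0.48 ± 0.13 (adjusted p = 0.0034). With the median of the gene's chromosome subtracted the difference was -0.38 and still passed (adjusted p = 0.037). The difference of GFP-TTP to GFP was 0.35 ± 0.13 and did not pass (adjusted p = 0.16).

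Pdia4 (ENSMUSG00000025823, chr6:47796141-47813430) encodes ERp72, a protein disulfide isomerase. Its level was 2158, 1904 and 1755 in GFP, 2386, 2100 and 1930 in GFP-TTP, and 1701, 1492 and 1376 in the mutant line. The GFP-TTP-AA libraries were below every library of the other lines. The difference to GFP-TTP was -0.49 ± 0.12 (adjusted p = 0.0021) and that to GFP was -0.35 ± 0.12 (adjusted p = 0.10).

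Atf6 (ENSMUSG00000026663, chr1:170704674-170867771) encodes the membrane-bound transcription factor that is cleaved in the Golgi upon ER stress. Its level was 555, 529 and 571 in GFP, 577, 548 and 591 in GFP-TTP, and 413, 391 and 423 in the mutant line. GFP and GFP-TTP libraries overlapped, and the GFP-TTP-AA libraries lay below both. The difference to GFP-TTP was -0.49 ± 0.16 (adjusted p = 0.024), and it did not pass once the median of genes of like coding length was subtracted (-0.43, adjusted p = 0.059). The difference to GFP was -0.43 ± 0.16 (adjusted p = 0.11).

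**Figure D2:**
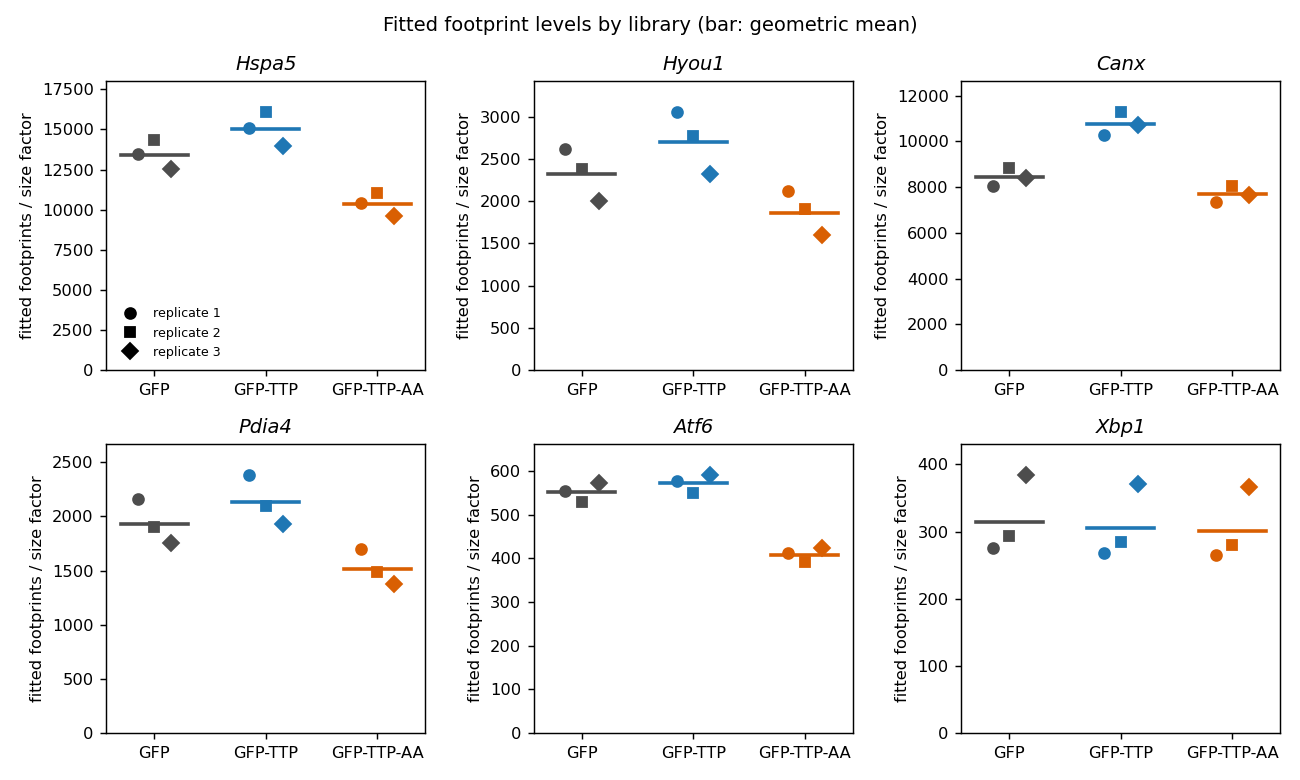
Level of the 5 genes that passed in GFP-TTP-AA vs GFP-TTP, and of Xbp1, in each of the 9 libraries (y axis: fitted footprints divided by the size factor, starting at 0; marker shape: replicate number; bar: geometric mean of the line). The GFP-TTP-AA libraries lie below all GFP-TTP libraries for Hspa5, Hyou1, Canx, Pdia4 and Atf6, and the lines overlap for Xbp1. The values are fitted with a replicate term that the lines share. This separation therefore follows from the size of the difference by which the genes passed and is no independent evidence.

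The other abundant chaperones pointed the same way with smaller values that did not pass. Hsp90b1 (GRP94) had levels of 10088 in GFP, 10781 in GFP-TTP, and 9173 in the mutant line, and the mutant line differed from GFP-TTP by -0.23 (95% interval -0.47 to 0.01, adjusted p = 0.25). It passed where the median of the gene's chromosome was subtracted (-0.41, adjusted p = 0.015). Calr had 11290, 12514 and 10672, with a difference of -0.23 (-0.51 to 0.05). The interval of Calr reaches the size of the smallest difference that passed and that of Hsp90b1 nearly does, so that these values do not show the genes to be unaffected. The 3 remaining isomerases P4hb, Pdia3 and Pdia6 lay between -0.24 and -0.05, so that all 4 genes listed as isomerases were lower and 1 passed. Among all genes tested 4.63% passed with a lower level. Of the 9 genes listed for Hsp70 and Hsp90 chaperones and their partners, which include Creld2 (-0.06), 6 were lower and 2 passed. The 3 that were higher were the BiP co-chaperones Dnajb9 and Dnajb11 and their partner Sdf2l1, at 0.28, 0.08 and 0.07. Manf, a BiP-binding factor, had -0.36 ± 0.15 (adjusted p = 0.10).

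Of the 3 UPR regulators Atf6 passed, and both genes of the IRE1 arm did not. Xbp1 had levels of 315, 305 and 301 in GFP, GFP-TTP and GFP-TTP-AA cells, and the mutant line differed from GFP-TTP by -0.02 (-0.35 to 0.31). Ern1 had 71.8, 66.3 and 70.3, with a difference of 0.08 (-0.36 to 0.53). The interval of Atf6 (-0.79 to -0.18) overlaps both of these. Whether Atf6 differed from Xbp1 in its response was not tested. Of the 6 ERAD genes 3 were lower and 0 passed, where 10.3% of all genes tested passed, and their median was -0.01. The most divergent of them, Herpud1, had 232 in GFP, 174 in GFP-TTP, and 219 in the mutant line, which is 0.33 ± 0.17 between the TTP lines (adjusted p = 0.25).

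For the machinery of ER entry the test called 0 of 12 genes, where 10.3% of all genes tested passed. All 3 Sec61 subunits were higher in GFP-TTP-AA than in GFP-TTP, between 0.09 and 0.19, and none passed. The 1012 genes with coding sequences of 75 to 519 nt, which include Sec61b (288 nt) and Sec61g (204 nt), had a median of 0.14. The channel subunit Sec61a1 had levels of 1807, 1759 and 1875, with a difference of 0.09 (-0.18 to 0.37). Signal peptidase had 3 of 5 genes higher, at most 0.32 ± 0.14 for the catalytic subunit Sec11c (adjusted p = 0.14). The TRAP complex was split, with Ssr2 at 0.38 ± 0.14 (adjusted p = 0.071) and Ssr1 at -0.31 ± 0.14 (adjusted p = 0.15), although both encode subunits of 1 complex. No test of roles against each other was made.

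**Figure D3:**
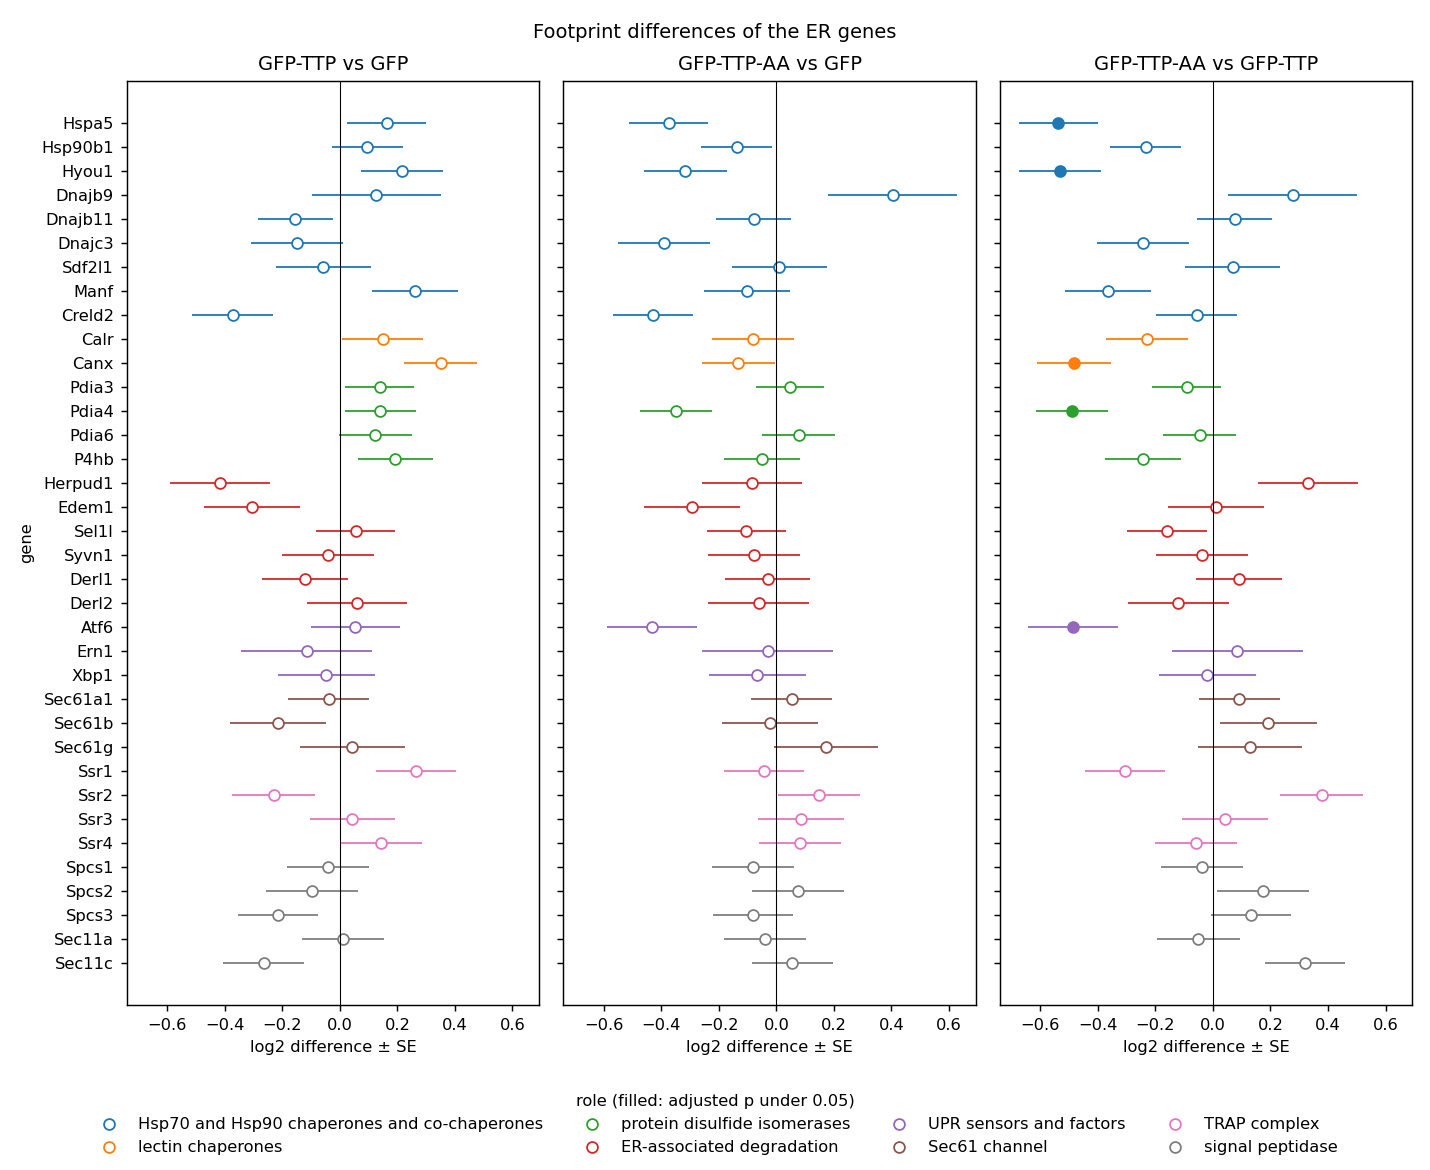
Log2 difference ± SE of all 36 ER genes in the 3 comparisons (x axis), ordered by role (y axis), with filled points for adjusted p under 0.05. The 5 filled points, all in GFP-TTP-AA vs GFP-TTP, are Hspa5, Hyou1, Canx, Pdia4 and Atf6, between -0.54 and -0.48, and the Sec61 subunits lie to the right of 0 in that panel.

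Against GFP cells no gene of this group passed. In GFP-TTP-AA vs GFP the test called 0 of 36, against 3.02% of the 10202 genes tested. Without adjustment 6 of the 36 had a p under 0.05 (14.2% of all genes tested), and all 6 were lower in GFP-TTP-AA (6.79% of all genes tested). They were Hspa5, Hyou1, Pdia4, Atf6, Creld2 and Dnajc3. The median was -0.06 with 25 genes lower and 11 higher. Creld2, which encodes a secreted disulfide isomerase induced by ER stress, came nearest to the threshold. Its level was 970, 869 and 642 in GFP, 752, 671 and 495 in GFP-TTP, and 724, 644 and 476 in the mutant line. Replicate 3 was lowest in every line, and the lines overlapped. The GFP-TTP-AA line differed from GFP by -0.43 ± 0.14 (adjusted p = 0.062), and the GFP-TTP line by -0.37 ± 0.14 (adjusted p = 0.19). The first of these passed when p-values were adjusted over the 3 comparisons together and when the median of genes of like coding length was subtracted. Hsp90b1 and Calr were at -0.14 (-0.38 to 0.10) and -0.08 (-0.36 to 0.20) in GFP-TTP-AA vs GFP. Xbp1, Ern1 and Sec61a1 were at -0.07 (-0.40 to 0.26), -0.03 (-0.47 to 0.41) and 0.05 (-0.22 to 0.33).

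In GFP-TTP vs GFP the test again called 0 of 36, against 2.1% of the 9939 genes tested. Kept genes without a standard error in this comparison could not be tested. The median was 0.03 with 19 genes higher and 17 lower. Without adjustment 3 had a p under 0.05, against 11.3% of all genes tested. Canx was higher (0.35), and Herpud1 (-0.42 ± 0.17, adjusted p = 0.27) and Creld2 were lower in GFP-TTP. Hspa5 was at 0.16 (-0.11 to 0.43), Hsp90b1 at 0.10 (-0.15 to 0.34), Calr at 0.15 (-0.13 to 0.43) and Atf6 at 0.05 (-0.25 to 0.36). Xbp1, Ern1 and Sec61a1 were at -0.05 (-0.38 to 0.28), -0.12 (-0.56 to 0.33) and -0.04 (-0.31 to 0.24). Hspa5, Hyou1, Canx, Pdia4 and Atf6 thus had their highest fitted level in GFP-TTP cells and their lowest in GFP-TTP-AA cells, with GFP cells between. For none of these 5 did either step to GFP cells pass. The order was not particular to them, since Hsp90b1, Calr, P4hb, Manf and Ssr1, which did not pass, had it too. It was not tested, and the 5 are the genes that passed between the TTP lines.

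The 8 genes with an ERSE were all lower in GFP-TTP-AA than in GFP-TTP, with a median of -0.23 and a range from -0.54 to -0.04, and 2 of them passed (Hspa5 and Canx), where 4.63% of all genes tested passed with a lower level. Of these 8 genes 7 have coding sequences over 1062 nt, the median of the 36, against 8 of the 20 genes with a promoter entry and no ERSE. This grouping thus overlaps in part with that by coding length below. The parts of the ERSE and of coding length in these differences were not tested. The 20 genes with a promoter entry and no ERSE were evenly split, 10 lower and 10 higher, with a median of -0.004, and 1 passed (Pdia4). Among all 7811 tested genes with a promoter entry 11 held an ERSE, so that most of them are the genes described here. Herpud1 and Dnajb11, with the ERSE-II, had 0.33 and 0.08 and did not pass. This split was seen after the fact and was not tested.

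The differences moved with coding length. Over the 36 genes Spearman's rho between coding length and the difference GFP-TTP-AA vs GFP-TTP was -0.52, and over 10062 genes with a coding length it was -0.25. For GFP-TTP-AA vs GFP the values were -0.58 and -0.17, and for GFP-TTP vs GFP they were 0.24 and 0.15. Genes are not independent replicates, and all points come from the same libraries. All 5 genes that passed have coding sequences over 1062 nt, the median of the 36. The longer 18 genes had a median of -0.19 and the shorter 18 a median of 0.05 in GFP-TTP-AA vs GFP-TTP. In the length classes of the 5 genes the median of all genes was between -0.06 and -0.04, and the 5 differences were between -0.54 and -0.48. After subtraction of that median Hspa5, Hyou1, Canx and Pdia4 still passed, Atf6 did not, and Manf did. With the longest coding sequence of each gene taken as its length instead, all 5 passed, and so did Manf. The part of coding length in these results was not tested further.

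**Figure D4:**
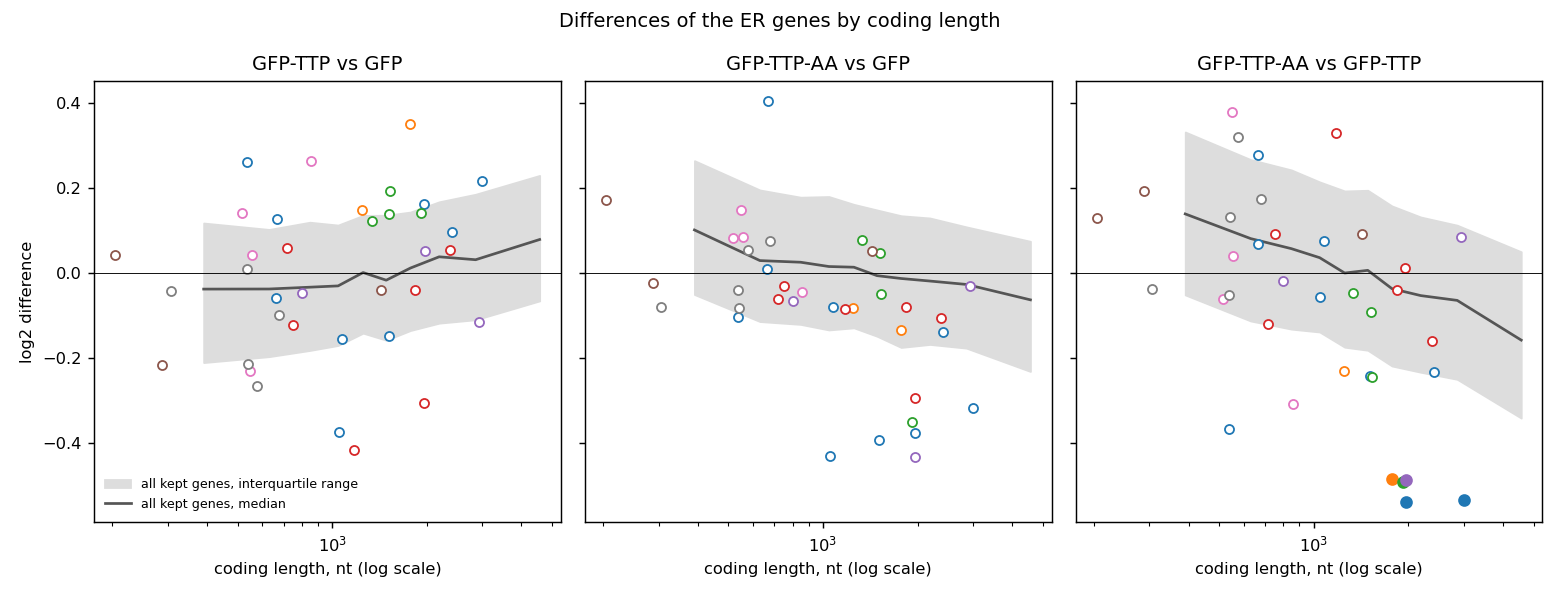
Log2 difference (y axis) of the 36 ER genes against coding length in nt on a log scale (x axis) in the 3 comparisons, coloured by role as in the other plots, with filled points for adjusted p under 0.05. The line and band give the median and the interquartile range of all kept genes in 10 length classes, and the 5 filled points in the last panel, all over 1062 nt, lie below the band.

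Replicate 3 differed from replicates 1 and 2 in both directions (a description, with no test). Of the 36 genes 13 were higher and 23 lower in replicate 3, with a median of -0.06 (log2). Among all 10202 kept genes 5027 were higher and 5175 lower, with a median of -0.005. All 9 genes for Hsp70 and Hsp90 chaperones and their partners were lower in replicate 3, with a median of -0.23 (log2), whereas all 4 TRAP subunits were higher, with a median of 0.22. The other roles were mixed, apart from both lectin chaperones, which were lower. Signal peptidase had 3 genes higher and 2 lower, the Sec61 channel and the UPR regulators 2 higher and 1 lower each, the isomerases 1 higher and 3 lower, and ERAD 1 higher and 5 lower. Xbp1 was higher by 0.43 and Creld2 lower by 0.52. The span of the replicate term of the 36 genes had a median of 0.28, near the 0.29 of all kept genes, and it is shared by the 3 lines in the fitted values and so leaves the differences between lines unchanged. Per the study's methods the second factor of the authors' model was the library date, which is not given per library, so the replicate number stands in for it here.

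Other genes of the same pathways were followed in a list of 74 that holds none of the 36, of which 72 were in the table and 70 were tested. In GFP-TTP-AA vs GFP-TTP 7 passed, 4 lower and 3 higher, that is 10.0% of the 70, near the 10.3% of all genes tested. The 3 with the lowest p were Serp1, a small protein that stabilizes nascent membrane proteins at the translocon (0.68 ± 0.18, adjusted p = 0.0029), Wfs1, the ER membrane protein wolframin (-0.86 ± 0.23, adjusted p = 0.0035), and Surf4, a cargo receptor for ER export (0.46 ± 0.13, adjusted p = 0.0081). The other four were chosen after their values were seen. They were Uggt1 (-0.37), which re-glucosylates misfolded glycoproteins for calnexin, the glucosidases Ganab (-0.39) and Mogs (-0.43), and Ube2j1, an ERAD ubiquitin-conjugating enzyme (0.45). Of the 12 genes listed for oligosaccharyltransferase and glycan trimming, which hold Uggt1, Ganab and Mogs, 7 were lower and 5 higher, with a median of -0.05 and up to 0.42 for Ostc (adjusted p = 0.069). With the median of genes of like coding length subtracted, 3 of the 7 passed, namely Serp1, Wfs1 and Surf4. With chromosome medians subtracted Ganab and Ube2j1 did not pass and Ero1lb did. In GFP-TTP-AA vs GFP 1 of 70 passed, against 3.02% of all genes tested, the ER oxidase Ero1lb (-0.73 ± 0.18, adjusted p = 0.0047). In GFP-TTP vs GFP 0 of 70 passed, against 2.1% of all genes tested, and 8 had an unadjusted p under 0.05 (11.3% of all genes tested). The nearest to the threshold was Ppp1r15a, listed with the PERK arm, at -0.68 ± 0.21 (adjusted p = 0.051). The 12 genes of the PERK arm and other UPR regulators had medians of -0.12, -0.14 and 0.01 in GFP-TTP vs GFP, GFP-TTP-AA vs GFP and GFP-TTP-AA vs GFP-TTP, and Wfs1 was the only gene of them that passed.

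Markers of cell state moved between the lines beside these results. The summed level of the macrophage markers ranged from 88744 to 107429 in GFP, from 71782 to 85752 in GFP-TTP and from 99892 to 121964 in GFP-TTP-AA libraries. Most of this sum was Lyz2, with a level of 64030 in GFP, 46028 in GFP-TTP and 71358 with the mutant. Emr1 (F4/80) was higher in GFP-TTP-AA than in GFP-TTP (1.22 ± 0.16, adjusted p = 5.4e-12), as was Lyz2 (0.63 ± 0.12, adjusted p = 8.7e-06), while Ptprc (CD45) was lower (-0.44 ± 0.14, adjusted p = 0.021). The other four did not pass, with Itgam at -0.0007, Cd68 at 0.19, Cd14 at 0.21 and Csf1r at 0.33. Of the neutrophil precursor markers 2 of 5 symbols were in the table and 1 had a fitted mean under 1, so that their sum was nearly all from 1 gene. That sum was between 20.2 and 39.8 in GFP and GFP-TTP libraries and between 43.9 and 82.4 in GFP-TTP-AA libraries. Of the plasma cell and B cell markers 4 of 6 were in the table and 3 had a fitted mean under 1, so that their sum, from 358 to 750, was nearly all Sdc1. The part of these shifts in the differences of the ER genes was not tested.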

How the data were processed

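Per the labels, footprints were isolated with the ARTseq kit after nuclease digestion and size exclusion, and rRNA was depleted. Trim Galore, TopHat2 2.0.12, HTSeq and DESeq2 1.6.3 are named in the submitters' processing notes with the builds mm10 and GRCm38, and the paper's methods keep up to 2 alignments per read, so that paralogs can share footprints. The deposited signal values, made by the authors as DESeq2 normalized counts, were checked and hold fitted values: after gene-wise condition and replicate terms and 1 constant per library the residual SD of the log2 values was 2.87e-15, against an SD of 4.79, with 0 zeros. They carry no observed counts, and depth per library is not known from them. The authors' model had a term for the library date beside the condition. Dates are not given per library, and replicate numbers stand in for them. The table has 16932 lines for 16921 genes (11 repeated lines, 1 without a gene name).

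The filter kept 10202 genes whose fitted values averaged 10 or more. Size factors (0.415 to 2.12) were medians of ratios over kept genes. The authors' deposited comparison tables hold log2 fold changes, standard errors, Wald statistics and p-values. Only the log2 standard error was read, as the error of the differences computed here, because the fitted values hold no replicate spread. Differences are on the authors' shrunken scale. The two-sided Wald p from the normal distribution was adjusted by Benjamini-Hochberg within each comparison, and 95% intervals are normal. The planned test on observed values could not be used. Coding length is that of the best APPRIS transcript in GENCODE vM21 (GRCm38), chosen after an earlier run with the longest one, and both are reported. Scripts were tested on simulated data. The genes, the lists and the tests were chosen with earlier results of these data known. Named genes were all 36 as needed, every library for those that passed, 7 representatives (Hspa5, Hsp90b1, Calr, Xbp1, Atf6, Ern1, Sec61a1), and up to 3 other ER genes per comparison by lowest p. Alternatives were the filter, scaling, centring, joint adjustment, chromosome medians, a call by size and coding length. Python 3.11.15, pandas 2.3.3, numpy 2.4.6 and scipy 1.17.1 were used.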

Additional observations from a re-analysis of the deposited data

How the results depend on the processing

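No paired analysis was possible because the deposited values are fitted and already hold 1 replicate-number term per gene, with no scatter left. For the same reason the alternatives that leave out each replicate and that add a replicate block were not run. The 5 genes lower in GFP-TTP-AA than in GFP-TTP (Hspa5, Hyou1, Canx, Pdia4 and Atf6) passed without the filter, with a fitted mean of at least 50, with joint adjustment, with scaling by library sums, with centring and with chromosome medians subtracted, where Hsp90b1 was the sixth. A call by size of at least 0.5 left 2 (Hspa5 and Hyou1). With genes of like coding length subtracted, an alternative chosen after seeing the data, 5 passed (Manf in, Atf6 out), and with the longest coding sequence 6 passed. In GFP-TTP-AA vs GFP 1 ER gene passed instead of 0, Creld2, under joint adjustment and under both forms of length. Of the other ER and UPR genes 3 passed instead of 7 in GFP-TTP-AA vs GFP-TTP under both forms of length, and 1 instead of 0 (Ppp1r15a) in GFP-TTP vs GFP. With chromosome medians subtracted 6 of them passed in GFP-TTP-AA vs GFP-TTP, 5 of them shared (Ganab and Ube2j1 out, Ero1lb in). Subtracting chromosome medians turned values near 0 around, to 0.0135 for Sec61a1 in GFP-TTP vs GFP, to 0.0452 for Ern1 and 0.00951 for Xbp1 in GFP-TTP-AA vs GFP, and to 0.0857 for Xbp1 in GFP-TTP-AA vs GFP-TTP. The cause of these changes was not tested, beyond fewer genes having a coding length (10062 of 10202). No scaling or centring moved the median of all genes by over 0.02.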
